A study of Mus musculus with 32 samples.

Results

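Late 2-cell mouse embryos labelled Trp53 MZ-KO were set against late 2-cell WT embryos, with 6 single-embryo libraries in each group of the 32 libraries in the series. Of 54532 genes in the deposited table, the 8772 with an FPKM of 1 or more in at least 6 of these 12 libraries were examined. FPKM counts the reads of a gene per length of the gene and per library size, and the length used here includes introns. By the labels, MZ-KO embryos came from Trp53 KO females mated to Trp53 KO males and so should lack both the maternal and the zygotic gene. The KO allele has exons 2 to 10 removed, and it was made by crossing Trp53 flox/flox mice with a Ddx4::Cre driver, which acts in germ cells. The WT embryos were Trp53 flox/flox, so both groups derive from the floxed allele, on a background labelled mixed Bl6/C57. All 12 embryos were taken as zygotes 24 hours after the ovulation hormone hCG, cultured in KSOM medium and collected at 48 hours. The label text gives no count of mothers per group, so embryos of a group may be siblings, and p-values measure the spread between single embryos. Two-cell embryos of 28 to 32 hours, 6 labelled MZ-KO and 8 WT, are used below only to give the earlier level of the same genes.

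p53, the product of Trp53, is a transcription factor that is held at a low level by the ubiquitin ligase Mdm2 and raises genes of cell cycle arrest, repair and cell death after damage. The mouse 2-cell stage is when most maternal RNA is cleared and the embryo's own genome is switched on. A short burst of transcription at this stage includes the factor Dux and the genes and repeats that Dux activates, such as the Zscan4 and Tdpoz families, and later in the stage genes for ribosomes, mitochondria and protein turnover come on.

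The read depth recovered from the FPKM values was 10.8 to 27.6 (in units of 1000000 reads) in embryos labelled MZ-KO and 16.5 to 24.0 in WT. Between 9013 and 9745 genes reached FPKM 1 in embryos labelled MZ-KO, and between 7989 and 9417 in WT. The means were 9266 and 8635, a difference of 630.5 genes (exact two-sided permutation test, p = 0.032), which lost the 0.05 level without any one of 5 libraries (MZ-KO 5 or 6, WT 3, 4 or 5; differences 501 to 592 genes, p = 0.065). The first principal component held 39.7% of the variance. On it the embryos labelled MZ-KO lay between 17.8 and 45.0 and WT between -48.7 and -20.2. MZ-KO library 5, which had the most reads and the most genes, lay nearest to WT. All 9 egg and cleavage markers reached FPKM 1 in late embryos, and their sum was 848 to 1041 in embryos labelled MZ-KO and 870 to 1361 in WT. None of 13 cumulus and granulosa cell markers reached FPKM 1 in any late library, with sums of 0.32 to 1.30 in embryos labelled MZ-KO and 0.38 to 1.48 in WT. A longer list of 24 genes around the egg had 1 member that passed the filter, Amhr2, which was not called as deposited (-0.34, adjusted p = 0.22) and was called lower after median-ratio scaling. The list summed to 5.37 to 8.90 in embryos labelled MZ-KO and 6.97 to 12.9 in WT. The Y-linked gene Eif2s3y was above 0 in MZ-KO libraries 3 and 6 and WT library 6.

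Trp53 itself (chr11:69580359-69591873, plus strand) was not called different in the late embryos labelled MZ-KO. Its lowest, median and highest FPKM were 1.48, 2.62 and 5.39 in embryos labelled MZ-KO and 0.557, 2.95 and 7.09 in WT. The groups overlapped throughout, and the difference of log2(FPKM + 1) was -0.03 ± 0.36 (SE; limma, adjusted p = 0.96; 95% interval -0.80 to 0.74). The value covers the whole span of the gene, so reads of the retained exons and of the deleted ones cannot be separated. In early embryos the order was different. Trp53 FPKM there ran from 0.311 to 1.11 with a median of 0.856 in embryos labelled MZ-KO, and from 2.60 to 9.29 with a median of 6.29 in WT. These ranges did not overlap. The late genotype difference exceeded the early one by 1.88 ± 0.44 (SE; adjusted p = 0.0035). Because the late Trp53 values do not show the loss that the label states, the late group is called by its label throughout, and every direction below rests on that label. Of 45 tested protein-coding genes within 1 Mb of Trp53, 3 were called higher and 4 lower in the late embryos labelled MZ-KO, 15.6% in all, where 31.9% of all tested genes were called. The higher count was 9 without MZ-KO library 5, 5 without WT library 2, and 2 to 4 without any other library, and the lower count was 2 without MZ-KO library 4 or WT library 1, 2 or 6.

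Many genes differed between the groups. At a Benjamini-Hochberg adjusted p below 0.05, 2802 of 8772 genes were called (31.9%), 1624 higher (18.5%) and 1178 lower (13.4%) in embryos labelled MZ-KO. A difference of at least 1 on the log2 scale was reached by 736 of the higher and 568 of the lower genes. In 1201 genes (13.7%) the groups did not overlap at all, and 1189 of these were called. The balance of directions depended on scaling. After median-ratio scaling of the libraries 1124 genes (12.8%) were higher and 1630 (18.6%) lower, because the median difference over all tested genes moved to -0.07 from 0.07 as deposited. Differences near that size are therefore not read as a direction below. Without the 3 libraries with Eif2s3y above 0 the calls numbered 1647, 1006 higher and 641 lower. With the number of detected genes as a covariate, a setting added after the data were seen, they numbered 2308, 1220 higher and 1088 lower. Among the members, 88 genes reached FPKM 1 in all 6 embryos labelled MZ-KO and in no WT embryo, and 29 the other way round, and such genes could enter only by differing. Genes at FPKM 1 in exactly 6 libraries numbered 628 and had a median mean level of 1.22 FPKM, and the 678 genes just outside, with exactly 5, had 1.01 FPKM.

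**Figure D1:**
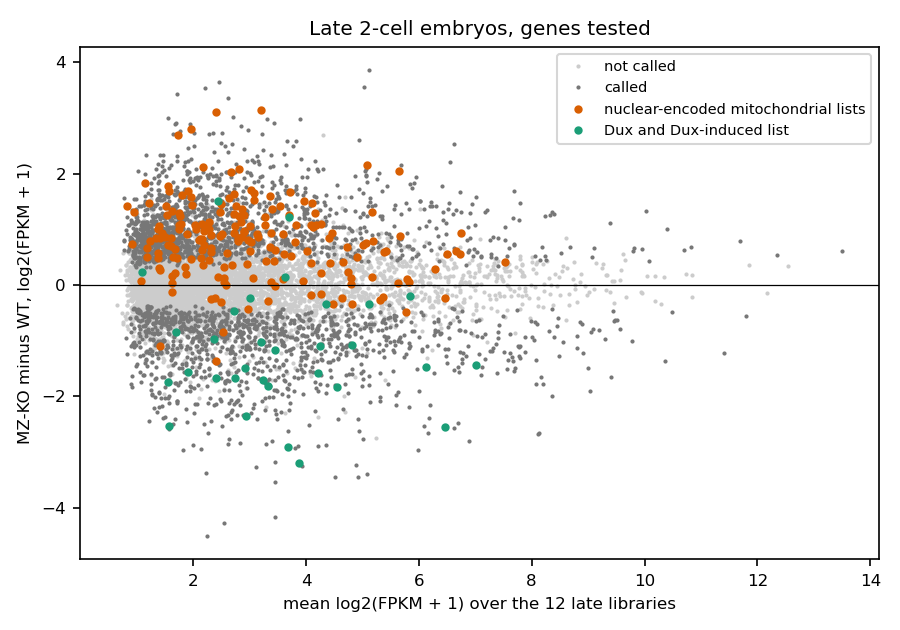
Difference between embryos labelled MZ-KO and WT in log2(FPKM + 1), vertical, against the mean log2(FPKM + 1) over the 12 late libraries, horizontal, for the 8772 tested genes; grey shades separate called from other genes. Members of the nuclear-encoded mitochondrial lists (117 of 185 higher) lie mostly above 0 and the Dux list (18 of 31 lower) mostly below it.

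Nuclear genes for mitochondrial proteins were higher in embryos labelled MZ-KO. Across 5 lists (complex I, complexes II to IV, ATP synthase, mitochondrial ribosome, protein import), 117 of 185 tested members were higher and 3 lower, with 244 members in the annotation. The share higher was 63.2%, where 18.5% of all tested genes were, and the median difference was 0.81, where that of all tested genes was 0.07. After median-ratio scaling 92 were higher and 6 lower. Of the 117, 64 had groups that did not overlap, as had 1189 of all 2802 called genes. With genes that overlap another annotated gene left out, 61 of 90 were higher. Without the 3 libraries with Eif2s3y above 0, 82 of 185 were higher, and with the number of detected genes as a covariate 104. Only 5 of the 185 had reached FPKM 1 in all embryos of one group and none of the other.

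In complex I, the proton-pumping NADH dehydrogenase at the entry of the respiratory chain, 24 of 35 tested genes were higher and 1, Ndufa2, was lower. That is 71.4% called, where 31.9% of all tested genes were. Ndufb10, a subunit of its membrane arm, had FPKM values of 19.3, 26.8 and 32.4 (lowest, median, highest) in embryos labelled MZ-KO and 0.448, 2.82 and 3.97 in WT. Every embryo labelled MZ-KO stood above every WT embryo, and the difference was 3.14 ± 0.30 (SE; adjusted p = 4.2e-05). Dmac1, an assembly factor of the same arm, had values of 10.1, 12.5 and 27.002 against 0, 0.586 and 5.15 in WT, a difference of 3.11 ± 0.42 (adjusted p = 0.00026). In complexes II to IV 22 of 36 genes were higher and 1 lower, 63.9% called. Cyc1, the cytochrome c1 of complex III, had 15.7, 23.2 and 31.3 FPKM in embryos labelled MZ-KO and 2.26, 7.34 and 12.9 in WT (difference 1.67 ± 0.30, adjusted p = 0.0013). Uqcrh, a hinge protein of the same complex, differed by 2.03, and Cox8c, a subunit of cytochrome c oxidase known from testis, by 2.69. Of 16 ATP synthase genes 11 were higher and none lower, 68.75% called. Atp5d, a subunit of its central stalk, had 6.16, 8.13 and 13.8 FPKM in embryos labelled MZ-KO and 0.335, 1.08 and 3.04 in WT, and Atp5j2, Atp5mpl and Atp5k differed by 1.70, 1.52 and 1.47.

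Proteins of the mitochondrial ribosome, which translates the few messages of mitochondrial DNA, gave 45 higher and 0 lower of 66 tested genes. That is 68.2% called, where 31.9% of all tested genes were, and after median-ratio scaling 36 were higher and 0 lower. The count of 45 stayed between 40 and 48 when any one library was left out. Mrpl36 had 7.08, 8.96 and 14.4 FPKM in embryos labelled MZ-KO and 0, 0.425 and 1.53 in WT, without overlap (difference 2.80 ± 0.26, adjusted p = 4.2e-05). Mrpl28 was the most abundant of those named, at 56.5, 66.3 and 90.9 FPKM in embryos labelled MZ-KO and 1.59, 19.7 and 41.9 in WT, though its call was lost without the 3 libraries with Eif2s3y above 0. In protein import 15 of 32 genes were higher and 1 lower, 50% called, and after median-ratio scaling 12 and 2. Timm13, a chaperone of the space between the mitochondrial membranes, had 79.9, 101 and 138 FPKM in embryos labelled MZ-KO and 12.4, 21.5 and 48.7 in WT (2.06 ± 0.29, adjusted p = 0.00029). The single fall of that list was Tomm34, a cytosolic cochaperone of import, at 1.05, 2.19 and 4.57 FPKM in embryos labelled MZ-KO and 6.25, 7.38 and 9.22 in WT. Chchd4 and Timm22, which serve import into the inner membrane and the space outside it, differed by 1.62 and 1.27.

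Of 43 tested genes of the proteasome, which degrades ubiquitin-tagged proteins, 21 were higher and none lower, 48.8% called, where 18.5% of all tested genes were higher (median difference 0.50; 13 higher and 1 lower after median-ratio scaling). Psmb10, a catalytic subunit of the immunoproteasome, had 18.8, 28.4 and 33.6 FPKM in embryos labelled MZ-KO and 0.937, 3.05 and 4.71 in WT (2.98 ± 0.27, adjusted p = 4.2e-05). Psma7, a subunit of the core particle, had 13.5, 24.4 and 25.6 against 4.22, 5.28 and 10.7 in WT. Psmc4, an ATPase of the cap, differed by 1.32, and Psmb6, a catalytic core subunit, by 1.42. In the spliceosome list 17 of 72 were higher and 4 lower, 29.2% in all, near the 31.9% of all tested genes. After median-ratio scaling the list had 9 and 7. Its largest rise was Lsm8, part of the ring that binds U6 snRNA, at 16.3, 23.3 and 24.5 FPKM in embryos labelled MZ-KO and 3.53, 5.88 and 9.84 in WT.

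Cytosolic ribosomal proteins did not share this pattern. Of 79 tested genes 5 were higher and 7 lower, 15.2% in all, below the 31.9% of all tested genes, with a median difference of -0.09. After median-ratio scaling 2 were higher and 17 lower, with a median of -0.26. The falls included Rpl37 (2.81, 4.59 and 5.39 FPKM in embryos labelled MZ-KO; 9.05, 10.9 and 12.8 in WT; difference -1.12) and the rises Rpl22 (1.03). Rpl41, among the most abundant genes, had 940, 1163 and 1752 FPKM in embryos labelled MZ-KO and 1313, 1646 and 2326 in WT (-0.49, adjusted p = 0.049), a call lost without any one of 9 libraries (all but MZ-KO 2, WT 1 and WT 5). Genes of the nucleolus and ribosome assembly gave 6 of 81 higher and 16 lower, 27.2% in all, below the 31.9% of all tested genes. After median-ratio scaling they gave 4 and 25. Utp14b, a ribosome assembly factor, had 6.78, 8.82 and 11.8 FPKM in embryos labelled MZ-KO and 15.0, 23.6 and 26.3 in WT. Small nucleolar RNAs, which guide modification of ribosomal RNA, gave 25 lower and 1 higher, 21.1% of those tested, where 31.9% of all genes were called, but 119 of those tested overlap another gene and 24 of the 25 are among those, so host and snoRNA reads are not separate. Translation initiation genes gave 10 higher and 6 lower of 46, 34.8% in all, close to the 31.9% of all tested genes. After median-ratio scaling 5 were higher and 9 lower.

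**Figure D2:**
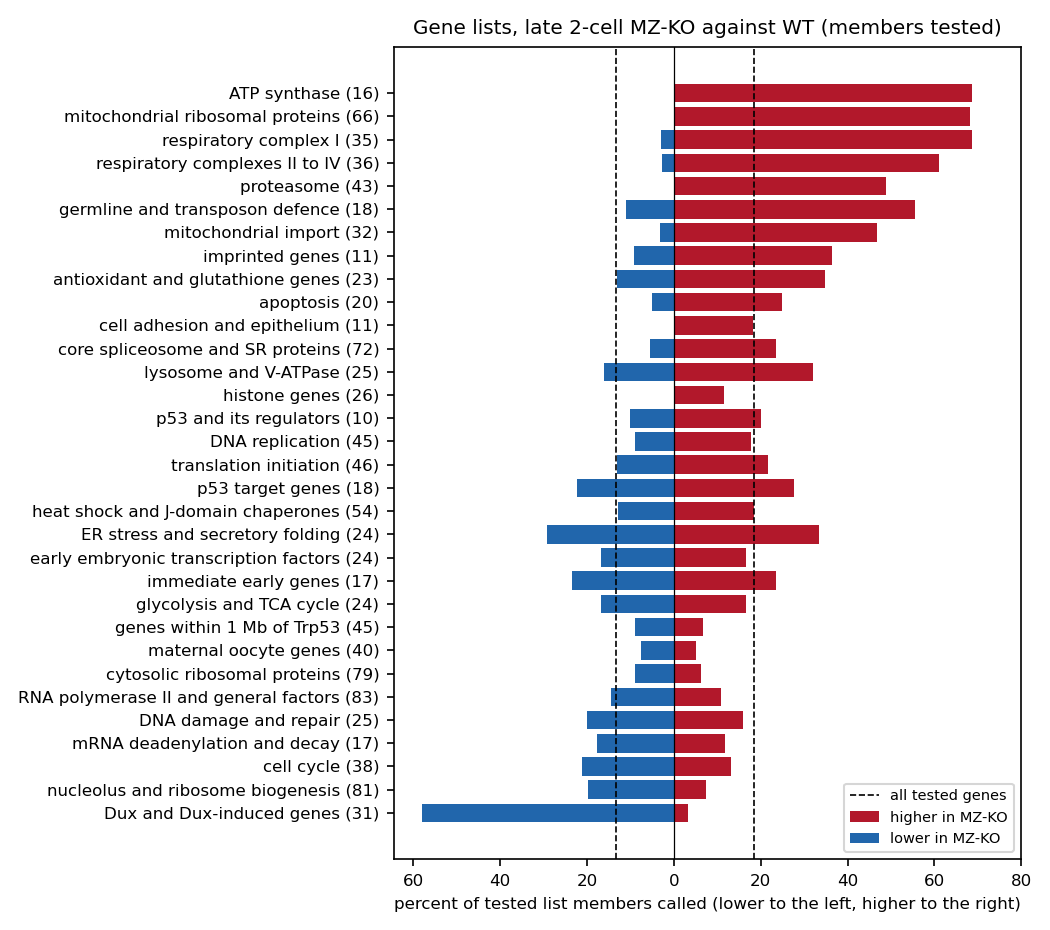
Percent of tested members called higher (right, red) or lower (left, blue) in embryos labelled MZ-KO for each list with at least 10 tested members, given in brackets; dashed lines mark all tested genes (18.5% higher, 13.4% lower). The mitochondrial lists and the proteasome extend far to the right and the Dux list far to the left.

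Genes that Dux activates were lower in embryos labelled MZ-KO. Of 31 tested genes of the Dux list, 18 were lower and 1, Tcstv1, was higher, 61.3% called, where 31.9% of all tested genes were. The median difference was -1.44, against 0.07 over all tested genes. After median-ratio scaling 20 were lower and 1 higher. Without the 3 libraries with Eif2s3y above 0 the list had 6 called lower, where 641 of all 8772 tested genes were. With no filter on low values it had 9, where 868 of all 32759 were. Duxf3, the annotated Dux gene, was at 0 in 10 of the 12 libraries and at most 0.338, and was not tested. Sums over the Zscan4 family, whose members act at telomeres and in heterochromatin, were 14.7 to 28.7 FPKM with a median of 21.7 in embryos labelled MZ-KO, and 25.7 to 117 with a median of 66.6 in WT. The 5 Tdpoz genes, which encode TRAF and BTB domain proteins, summed to 76.5 to 221 (median 102) in embryos labelled MZ-KO and to 233 to 555 (median 439) in WT, without overlap. Members of these families are similar in sequence and can share reads, so single members are uncertain.

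Among single members, Zscan4d had 2.60, 3.56 and 9.33 FPKM in embryos labelled MZ-KO and 7.25, 19.5 and 34.2 in WT (-1.71 ± 0.38, adjusted p = 0.0050), and Zscan4c differed by -1.49 (adjusted p = 0.0072). Tdpoz5 had 21.3, 34.1 and 80.6 in embryos labelled MZ-KO and 137, 246 and 306 in WT (-2.56 ± 0.31, adjusted p = 0.00014). Not all markers of this burst moved. Zfp352, a zinc finger gene of the 2-cell stage, had 2.88, 7.25 and 9.67 in embryos labelled MZ-KO and 1.59, 10.8 and 16.5 in WT. Its difference was -0.24 ± 0.44 (limma, adjusted p = 0.71), and Tcstv3 was not called. Dppa2 and Dppa4, which are not markers of this burst, were not called either. Tcstv1 had 3.34, 10.1 and 13.2 in embryos labelled MZ-KO and 0.621, 2.76 and 4.45 in WT (1.503 ± 0.40, adjusted p = 0.013), opposite to the other called members. The WT embryos spread widely. The median over the list's tested members was 2.28 to 3.32 on the log2(FPKM + 1) scale in late embryos labelled MZ-KO and 2.72 to 4.72 in WT, and WT libraries at the low end overlapped the other group. In early embryos the same median was 0.73 to 3.00 in those labelled MZ-KO and 1.32 to 3.66 in WT.

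**Figure D3:**
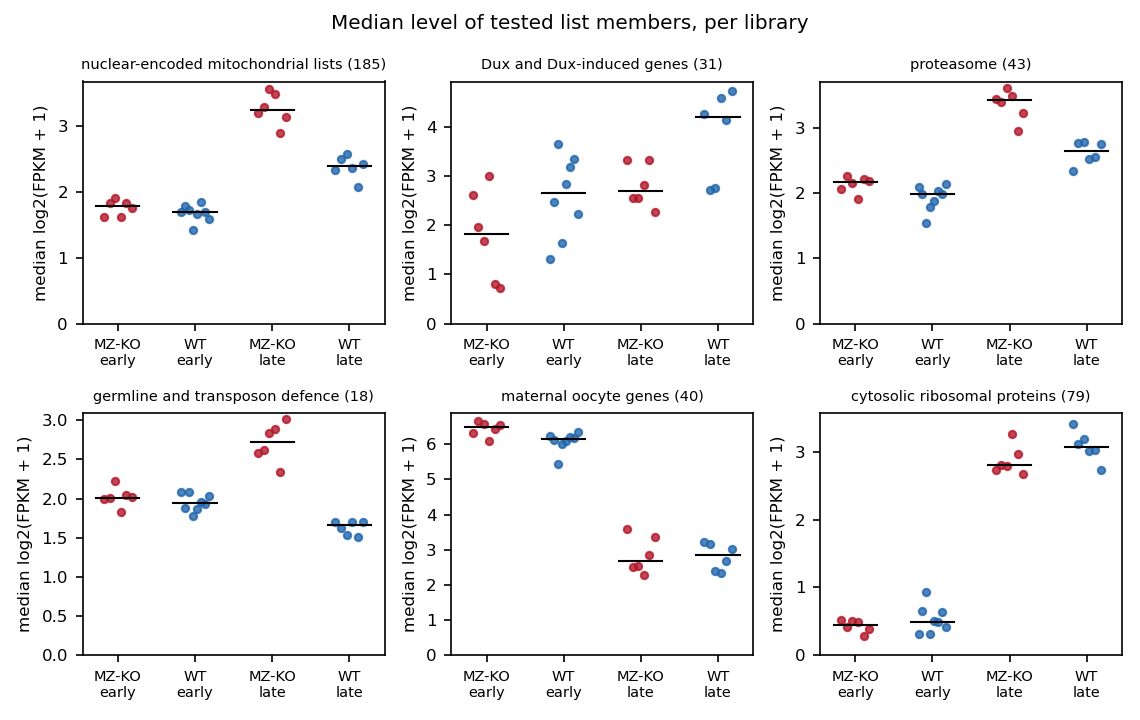
Median log2(FPKM + 1) over the tested members of 6 lists in each library of the early and late 2-cell groups; each point is 1 library and each line a group median. For the 185 mitochondrial genes the group medians are 3.23 in late embryos labelled MZ-KO and 2.39 in late WT, with 1.79 and 1.70 in the early groups.

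The mitochondrial lists stood close together in the 2 early groups and apart in the late ones. Their median over 185 tested genes was 1.61 to 1.91 in early embryos labelled MZ-KO and 1.41 to 1.84 in early WT, and 2.89 to 3.56 in late embryos labelled MZ-KO and 2.07 to 2.57 in late WT. Both late groups were above their early groups, and the embryos labelled MZ-KO were further above. The 185 genes were kept for FPKM 1 or more in late libraries, which by itself favours late values above early ones. The germline list differed in form, with a median of 2.34 to 3.02 in late embryos labelled MZ-KO and 1.51 to 1.70 in late WT, where the early groups held 1.83 to 2.22 and 1.78 to 2.09. Maternal oocyte genes fell to like levels in both late groups, with list medians of 2.29 to 3.60 in embryos labelled MZ-KO and 2.34 to 3.22 in WT. Of 40 tested maternal genes 2 were higher and 3 lower, 12.5% in all, where 31.9% of all tested genes were called. The higher count was 4 without WT library 1, 1 without MZ-KO library 1, 3 or 6 or WT library 2, 3, 4 or 5, and 2 or 3 otherwise, and the lower count 1 without MZ-KO library 4 or 5 or WT library 4, and 2 or 3 otherwise. Some risen genes had been abundant early: Dmac1 had a median of 30.5 FPKM in early embryos labelled MZ-KO and 29.6 in early WT, and the initiation factor gene Eif1b 135 and 133. Other risen genes, such as Ndufb10 (0.605 and 0.377) and Psmb10 (0 and 0.165), were near 0 in both. The difference between the late and the early genotype effect was called in 2363 of 11558 genes (20.4%), 1392 more positive and 971 more negative late, and 859 and 1676 after median-ratio scaling. Of the 1624 higher genes 470 (28.9%) had a mean under FPKM 1 in both early groups, and of the 1178 lower genes 510 (43.3%) did. Among all tested genes the share was 37.4%.

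Targets of p53 went both ways. Of 30 listed targets 18 were tested, 5 were higher and 4 lower, and the median difference was -0.30. That is 50% called, where 31.9% of all tested genes were, and after median-ratio scaling 3 were higher and 5 lower. The higher count was 3 without MZ-KO library 6 or WT library 4 or 5, and the lower count 2 without WT library 1 or 5. Cdkn1a, the cell cycle inhibitor p21, had 13.8, 26.5 and 36.8 FPKM in embryos labelled MZ-KO and 1.22, 4.75 and 11.5 in WT. No embryo of one group reached the other, and the difference was 2.16 ± 0.38 (SE; adjusted p = 0.0011). Mdm2, which marks p53 for degradation, had 8.52, 10.2 and 10.5 in embryos labelled MZ-KO and 2.09, 4.74 and 6.27 in WT, also without overlap (0.96 ± 0.20, adjusted p = 0.0032). Its relative Mdm4, which restrains p53, differed by 0.91 (adjusted p = 0.013). Cdkn1a and Mdm4 overlap another annotated gene and can share reads with it. Ccng1, cyclin G1, had 0.803, 1.87 and 4.53 in embryos labelled MZ-KO and 0.104, 0.659 and 1.09 in WT (0.90 ± 0.25, adjusted p = 0.017). Rrm2b and Rps27l were the other rises, at 0.56 and 0.49.

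The 4 falls were Btg2, Tigar, Ei24 and Aen. Tigar, which lowers flux through glycolysis, had 5.97, 8.15 and 10.7 FPKM in embryos labelled MZ-KO and 16.2, 18.3 and 23.4 in WT, without overlap (-1.14 ± 0.17, adjusted p = 0.00043). The Tigar gene overlaps another annotated gene and can share reads with it. Btg2, an antiproliferative factor, had 1.84, 3.22 and 3.67 in embryos labelled MZ-KO and 2.17, 13.9 and 20.8 in WT, where WT libraries 2 and 3, at 2.17 and 3.67, were close to the embryos labelled MZ-KO. Its difference of -1.41 ± 0.44 (adjusted p = 0.027) was not called without any one of 6 libraries (MZ-KO 1 or 4, WT 1, 4, 5 or 6). Bax, a pore-forming effector of cell death, had medians of 10.2 in embryos labelled MZ-KO and 10.8 in WT (0.13 ± 0.20, adjusted p = 0.64), and Plk2, a polo-like kinase, differed by -0.74 ± 0.51 (adjusted p = 0.28). Leaving out single libraries moved the count of higher targets to as few as 3 and of lower targets to as few as 2. With the 3 Eif2s3y libraries left out 2 were higher and 1 lower. In the DNA damage list 4 of 25 were higher and 5 lower, 36% in all, where 31.9% of all tested genes were called. The lower count was 2 without MZ-KO library 6 or WT library 6, 3 without MZ-KO library 2, 3 or 4 or WT library 1, 4 or 5, and 4 or 5 otherwise. The falls included Gadd45a, a stress-induced repair factor, at 6.53, 11.9 and 18.1 in embryos labelled MZ-KO and 19.6, 29.05 and 45.5 in WT.

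**Figure D4:**
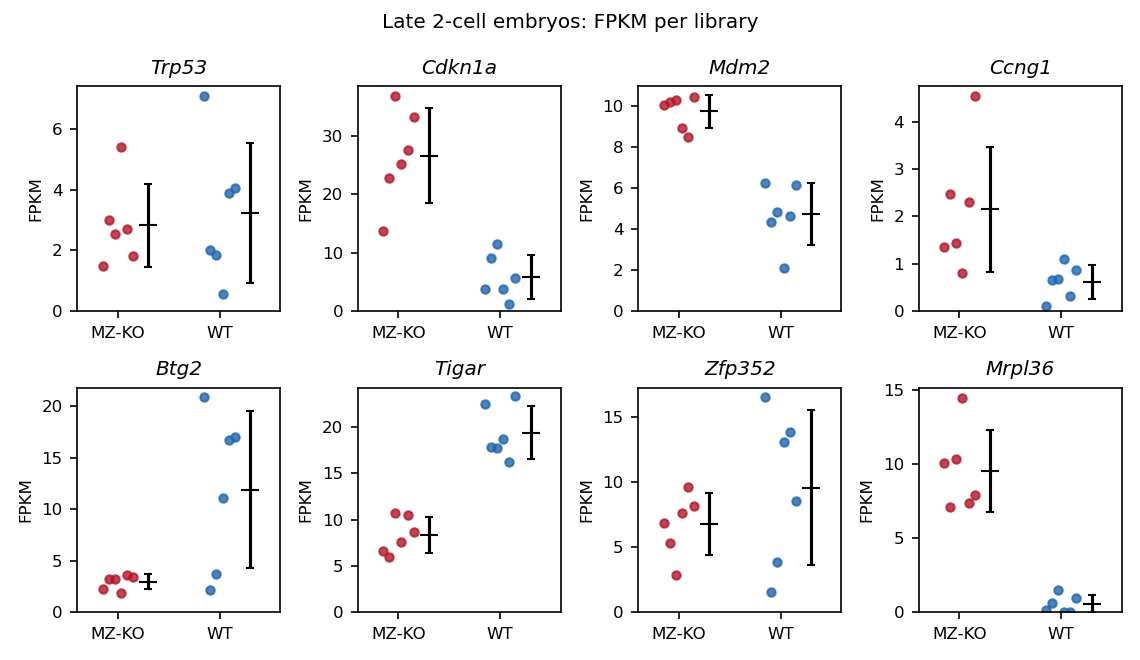
FPKM of 8 genes in each late 2-cell library, with points for single embryos and bars for the mean and SD of the 6. Cdkn1a, Mdm2 and Mrpl36 are higher in every embryo labelled MZ-KO and Tigar lower, where Trp53 and Zfp352 overlap.

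The promoter of Cdkn1a is shown because the gene is a textbook p53 target and had the largest difference in that list. The window is chr17:29090729-29091028, plus strand, from 250 bases before to 50 after the start, credited to RefSeq, build GRCm38.p6. Capitals mark exact matches to the p53 half-site consensus, so near matches stay in lower case.
Cdkn1a promoter: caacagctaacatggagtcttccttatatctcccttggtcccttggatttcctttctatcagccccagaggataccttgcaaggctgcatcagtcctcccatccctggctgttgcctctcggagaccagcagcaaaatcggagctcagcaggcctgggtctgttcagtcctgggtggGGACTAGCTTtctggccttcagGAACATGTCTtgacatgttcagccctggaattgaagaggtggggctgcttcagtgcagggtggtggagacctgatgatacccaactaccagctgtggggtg
A p53 half-site match occurred in 8.37% of the 27025 promoters of the same length in that table, and this window held 2, from base -73 to -64 and from -51 to -42 relative to the start. Among promoters of tested protein-coding genes a match was in 6.9% of the higher, 7.17% of the lower and 7.11% of the uncalled.

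Ier3, an immediate early gene linked to stress survival, had 13.3, 16.9 and 25.8 FPKM in embryos labelled MZ-KO and 0, 0 and 7.41 in WT, where 4 of 6 were at 0 (3.64 ± 0.47, adjusted p = 0.00019). Phlda2, an imprinted gene that limits placental growth, had 38.4, 115 and 283 in embryos labelled MZ-KO and 1.57, 12.4 and 20.7 in WT (3.56 ± 0.61, adjusted p = 0.0011). Both separated the groups. The other rises were Nt5c (a nucleotidase, 3.36), Ndufb10, Dmac1, Dnajb3 (2.99), Psmb10, Fkbp11 (2.92), Tex19.2 (2.90), Chrna10 (a nicotinic receptor subunit, 2.88), Mrpl36 and Tex101 (2.74). All but Tex101 separated the groups, as 13.7% of all tested genes did, but these genes were picked for their large differences.

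Calhm3, a subunit of a voltage-gated ATP release channel, was listed at 0 in all 6 embryos labelled MZ-KO, and had 8.06, 25.1 and 46.4 FPKM in WT. It passed the filter through the WT embryos alone and could enter only by differing, as could Dnajb3, Fkbp11, Tex19.2 and Cox8c through the embryos labelled MZ-KO, so its adjusted p is not given. In early embryos it was at 0 to 0.581 in those labelled MZ-KO and at 0.141 to 5.27 in WT. Rfpl4b, a ret finger protein-like gene, had 8.17, 21.8 and 40.9 in embryos labelled MZ-KO and 67.4, 223 and 332 in WT (-2.96 ± 0.45, adjusted p = 0.00046). Arl4d, a small GTPase, had 0, 0 and 1.96 in embryos labelled MZ-KO and 0.178, 10.3 and 43.2 in WT (-2.96 ± 0.69, adjusted p = 0.0066). It reached FPKM 1 only in MZ-KO library 2 and WT libraries 1, 2, 4, 5 and 6. Thus Arl4d passed the filter mainly through WT embryos, which favours a fall. The other falls were Defb25 (a beta-defensin, -2.76), Tdpoz5, Tdpoz3, Duoxa2 (-2.37), Klhl11 (-2.29), Gpr50 (-2.25), Pramel7 (-2.20), Zswim3 (-2.11) and the kinase Pim1 (-2.09). Of the 12 falls, which were also picked by size, Arl4d and Gpr50 had overlapping groups.

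**Figure D5:**
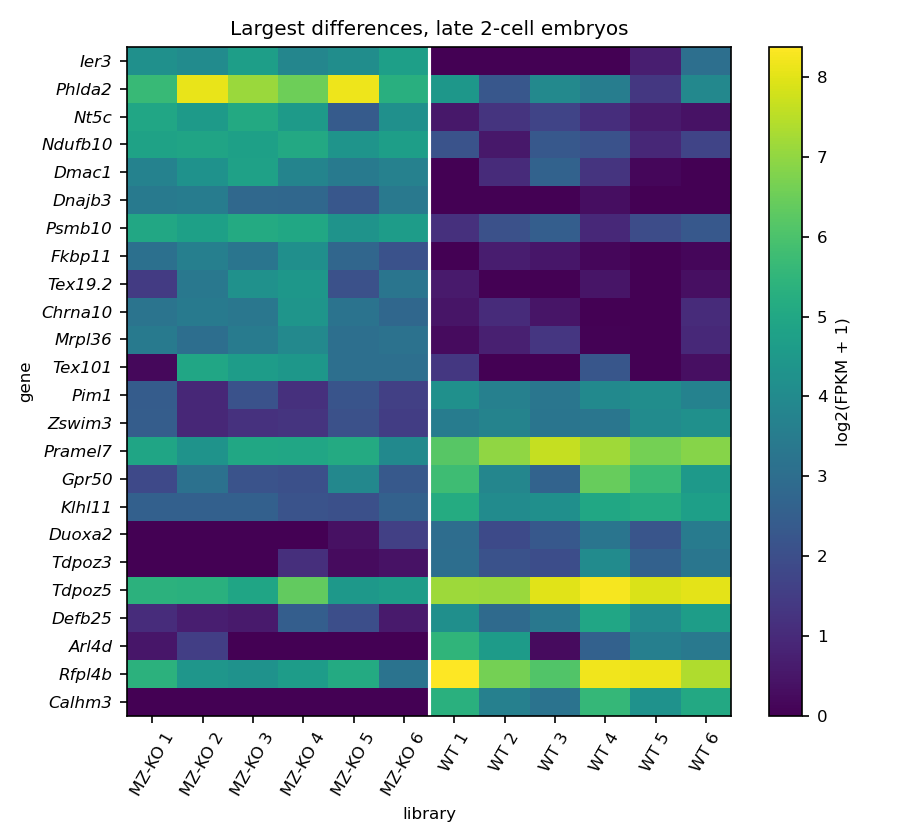
Heat map of log2(FPKM + 1) for the 12 largest rises (top) and 12 largest falls (bottom) among called protein-coding genes, with 6 libraries labelled MZ-KO left of the white line and 6 WT libraries right of it. Calhm3 is at 0 in the 6 left columns and between 8.06 and 46.4 FPKM in the 6 right ones.

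Promoters are shown for the first 2 rises and the first fall with an entry in the RefSeq table (GRCm38.p6), to set the sequences at both extremes beside each other. Calhm3 had none. Capitals mark the GC box GGGCGG, the CCAAT box and TATAAA on either strand.
Ier3 promoter, chr17:35821463-35821762, plus strand: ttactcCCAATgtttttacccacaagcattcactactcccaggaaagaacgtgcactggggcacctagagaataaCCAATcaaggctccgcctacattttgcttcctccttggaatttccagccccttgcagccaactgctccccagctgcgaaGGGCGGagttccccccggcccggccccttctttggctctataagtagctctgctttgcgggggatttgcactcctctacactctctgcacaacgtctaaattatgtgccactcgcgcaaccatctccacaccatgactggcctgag
Phlda2 promoter, chr7:143502475-143502774, minus strand: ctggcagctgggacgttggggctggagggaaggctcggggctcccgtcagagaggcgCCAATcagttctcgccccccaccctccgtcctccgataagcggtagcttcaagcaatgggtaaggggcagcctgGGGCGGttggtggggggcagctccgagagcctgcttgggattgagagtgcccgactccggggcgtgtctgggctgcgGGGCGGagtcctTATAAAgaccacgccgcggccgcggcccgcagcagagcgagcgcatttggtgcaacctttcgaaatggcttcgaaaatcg
Rfpl4b promoter, chr10:38821730-38822029, minus strand: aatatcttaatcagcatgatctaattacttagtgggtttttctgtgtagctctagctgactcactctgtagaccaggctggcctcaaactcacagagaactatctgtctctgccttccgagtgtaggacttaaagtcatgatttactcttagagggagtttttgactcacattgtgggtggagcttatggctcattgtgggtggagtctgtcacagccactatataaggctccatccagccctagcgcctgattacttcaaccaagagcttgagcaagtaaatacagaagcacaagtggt
The Ier3 window held 1 GC box and 2 CCAAT boxes. The Phlda2 window held 2 GC boxes, 1 CCAAT box and TATAAA from base -30 to -25 relative to the start. The Rfpl4b window held none of these exact letters, and variants of them, such as other forms of the TATA box, were not searched for. Across all 27025 promoters the shares were 35.9% for the GC box, 37.9% for CCAAT and 14.2% for TATAAA. Among promoters of tested protein-coding genes the GC box was in 61.3% of the higher, 62.8% of the lower and 65.5% of the uncalled. In the same order CCAAT was in 41.4%, 50.4% and 41.1%, and TATAAA in 6.79%, 9.06% and 6.91%.

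Of 9 hairpins of the Mir290 to Mir295 cluster, a microRNA cluster known from early mouse embryos and embryonic stem cells, 3 were tested and all 3 were lower in embryos labelled MZ-KO. They were picked after their values were seen. Mir293 and Mir294 reached FPKM 1 only in WT libraries 1 to 5 and MZ-KO library 5. Mir295 did so in these and in MZ-KO library 4. All 3 thus passed the filter mainly through WT embryos, which favours a fall, and their adjusted p-values do not allow for that. The cluster lies on chr7, and the 3 tested members are on the plus strand. Their mature sequences are shown with the seed, bases 2 to 8, in capitals (RefSeq, GRCm38.p6).
miR-293-3p: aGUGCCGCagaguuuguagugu
miR-294-3p: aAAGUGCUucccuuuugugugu
miR-295-3p: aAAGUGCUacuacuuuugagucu
The last 2 share the seed AAGUGCU, and miR-293-3p has GUGCCGC. The values are cDNA reads over the hairpin spans and not levels of the mature microRNA. Mir294 was at 0 in 5 embryos labelled MZ-KO and at 9.06 FPKM in MZ-KO library 5, and had 0.651, 13.2 and 34.6 in WT, where all 6 were above 0 (-2.88 ± 0.77, adjusted p = 0.013, and 0.056 with no filter on low values). Mir293 was at 8.61 in MZ-KO library 5 and 0 in the other 5, and had 0.683, 18.6 and 52.2 in WT. Its difference was -3.39 ± 0.84 (limma, adjusted p = 0.0087, and 0.039 with no filter on low values). Mir295 had 3.93 and 8.93 in MZ-KO libraries 4 and 5 and 0.792 to 44.4 in WT. Its difference was -2.66 (limma, adjusted p = 0.029, and 0.10 with no filter on low values). That call was also lost without any one of 7 libraries. The other 6 hairpins of the cluster were at 0 in all 6 embryos labelled MZ-KO, and were too low to test. Mir291b was above 0 in 5 WT embryos, Mir291a in 2, and Mir292 and Mir292b in 1. The 3 tested hairpins span 80, 84 and 69 bases, and 34.6 FPKM at Mir294 stood for 48 reads. Mir293, Mir294 and Mir295 lie within the span of Nlrp12 on the opposite strand, a gene at 0.358 to 0.876 FPKM in embryos labelled MZ-KO and 0.502 to 1.74 in WT.

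Genes of the germline and of defence against transposons gave 10 higher and 2 lower of 18 tested, 66.7% called, where 31.9% of all tested genes were. Of the 10, Tex19.2 and Mael reached FPKM 1 in all embryos labelled MZ-KO and in no WT embryo and could enter only by differing. The lower count was 1 without MZ-KO library 2, 5 or 6 or WT library 4 or 6. Sycp3, of the meiotic chromosome axis, had 8.59, 11.5 and 16.4 FPKM in embryos labelled MZ-KO and 0.860, 2.79 and 4.55 in WT (1.80 ± 0.26, adjusted p = 0.00036). Tex19.2 had 1.74, 8.89 and 20.5 against 0, 0.133 and 0.534 in WT. Its paralogue Tex19.1, which restrains retrotransposons, went the other way, with 24.6, 48.1 and 79.0 in embryos labelled MZ-KO and 48.5, 113 and 163 in WT (-1.15 ± 0.39, adjusted p = 0.038). Mael, a factor of the piRNA pathway, differed by 1.07, Dnmt3l, the cofactor of de novo DNA methylation, by 0.96, and Dazl, an RNA-binding protein of germ cells, by 1.22. With detected genes as a covariate 6 of the list were higher and 1 lower.

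Of 24 tested early transcription factors 4 were higher and 4 lower, 33.3% in all, close to the 31.9% of all tested genes, and after median-ratio scaling 4 and 7. Hand1, a factor of the trophoblast, had 3.29, 6.18 and 18.1 FPKM in embryos labelled MZ-KO and 0.056, 0.596 and 5.15 in WT (2.05 ± 0.44, adjusted p = 0.0040). Elf3, Klf4 and Zfp42 were the other rises, at 1.54, 0.94 and 0.84. Klf17, a zinc finger factor of the 2-cell embryo, fell to 16.7, 36.9 and 45.6 in embryos labelled MZ-KO, against 56.9, 58.7 and 80.8 in WT (-1.02 ± 0.24, adjusted p = 0.0063). Nr5a2, a nuclear receptor active at genome activation, had 1.54, 1.67 and 2.43 in embryos labelled MZ-KO and 3.22, 3.65 and 4.70 in WT, also without overlap (-0.79, adjusted p = 0.00092). Obox3 and Nfya fell by 1.05 and 1.11. Pou5f1, the pluripotency factor Oct4, had medians of 3.35 in embryos labelled MZ-KO and 3.95 in WT (-0.08 ± 0.28, adjusted p = 0.85), and Nanog and Sox2 were too low to test.

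In the heat shock and J-domain list 10 of 54 were higher and 7 lower, 31.5% in all, about the 31.9% of all tested genes. Hspa8, the constitutive HSP70 chaperone, had 4.201, 6.56 and 8.61 FPKM in embryos labelled MZ-KO and 20.2, 23.8 and 35.3 in WT (-1.90 ± 0.22, adjusted p = 0.00011). The stress-induced pair Hspa1a and Hspa1b, near-identical copies, differed by -1.60 and -1.75, calls that were lost without the 3 Eif2s3y libraries. In the endoplasmic reticulum list 8 were higher and 7 lower of 24, 62.5% called, where 31.9% of all tested genes were. The lower count was 3 without WT library 5, 4 without MZ-KO library 1, 2 or 3 or WT library 1, 4 or 6, and 5 to 7 otherwise. The rises included Creld2 (1.86) and the chaperone Hsp90b1 (1.57). Among cell cycle genes 5 of 38 were higher and 8 lower, 34.2% in all, close to the share of all tested genes, and after median-ratio scaling 4 and 10. The lower count was 5 without MZ-KO library 4 or 5 or WT library 6. Cdc20, the activator of the anaphase-promoting complex, had 53.3, 168 and 193 in embryos labelled MZ-KO and 274, 304 and 427 in WT (-1.30 ± 0.30, adjusted p = 0.0056), where Cdk4, a G1 kinase, had 24.1, 30.6 and 36.3 in embryos labelled MZ-KO and 7.28, 9.48 and 16.5 in WT (1.49 ± 0.20, adjusted p = 0.00021). Pcna, the sliding clamp of replication, fell to 6.02, 7.49 and 8.06 in embryos labelled MZ-KO, against 13.3, 15.6 and 20.3 in WT.

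Alpha-globin reads were the one marker of blood that moved. Hba-a1 and Hba-a2, similar copies that share reads, summed to 31.3 to 153 FPKM (median 68.6) in embryos labelled MZ-KO and to 12.1 to 21.4 (median 17.4) in WT, without overlap. The beta-globin genes Hbb-bt and Hbb-y were at 0 in all 12 libraries, and Hbb-bs was at most 0.056. Of 8 blood and immune markers 3 reached FPKM 1 in any late library, and the list summed to 31.5 to 156 in embryos labelled MZ-KO and 14.3 to 23.2 in WT. The part of these reads in the other differences was not tested. Alppl2, an alkaline phosphatase of early embryos and among the most abundant called genes, fell to 170, 300.2 and 477 in embryos labelled MZ-KO, against 781, 841 and 1046 in WT (-1.50 ± 0.21, adjusted p = 0.00030). Omt2b, an oocyte-expressed gene, had 490, 597 and 799 in embryos labelled MZ-KO and a WT median of 1136 (-1.01, adjusted p = 0.016), and Dppa5a, a pluripotency marker, had 414, 482 and 849 in embryos labelled MZ-KO and 237, 330 and 470 in WT (0.68, adjusted p = 0.023). Dppa5a was no longer called after median-ratio scaling, without WT library 4 or without WT library 6.

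By gene class, 1209 of 5773 protein-coding genes were higher (20.9%) and 698 lower (12.1%). Unprocessed pseudogenes, which include copies of multicopy families, gave 12 higher and 47 lower of 110 (53.6% called). Among lincRNAs 37 were higher and 52 lower of 286 (31.1%), close to the 31.9% of all tested genes. Higher, lower and uncalled genes had median spans of 7503, 6141 and 7599 bp and median GC contents of 48.8%, 49.1% and 49.1%. With the trend on length and GC taken out, 1407 genes were higher and 1386 lower. The share that overlaps another gene was 51.0% of the higher, 53.1% of the lower and 56.0% of the uncalled. On the X chromosome 79 of 353 genes were called (22.4%), and on the autosomes 26.8% to 37.7%.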

How the data were processed

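RNA was measured in single eggs and embryos with a SMART-seq v4 kit (15 PCR cycles, Tn5 tagmentation), per the labels' protocols; the kit does not mark strand. The authors deposited 1 table of FPKM values per gene and library, and per the submitters' processing notes the tools named were TopHat2, DESeq and DESeq2 with build mm10; their roles and versions are not given in the sources used here. The late MZ-KO headers have the stage letters transposed, and the mean of the 6 columns of each late group equalled the authors' deposited late mean. All per-sample columns were assigned to a group by their headers, which give no replicate number, so libraries are numbered in column order and the numbers pair nothing. Low values were whole multiples of 1 read when length was the genomic span, so introns count in FPKM, and the steps gave the depth. Overlapping genes share reads, and 68 of 149 named genes overlap another gene of GENCODE M21.

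Values were analysed as log2(FPKM + 1), on which changes of low genes are understated, with limma 3.58.1 (trend, robust; statmod 1.5.0, R 4.3.3), MZ-KO minus WT, on the 12 late libraries; p-values were Benjamini-Hochberg adjusted over all 8772 tested genes, and the difference between late and early effects was fitted on 26 libraries with 11558 genes. The limma fit was also run on simulated normal values with known changes, as a check of the code only. The members and the 36 gene lists were chosen with earlier results of these data known. Named genes are Trp53, the 12 largest rises and 12 largest falls among called protein-coding genes with a gene name, up to 4 called members of each list, a set of role genes, and the 8 most abundant called genes; others named are list members, untested genes or were chosen after their values were seen. Lists are described by counts and medians with no test. Alternatives changed the pseudocount, filter, scaling, moderation, covariates, gene set and libraries. Sequences are from RefSeq. Python 3.11.15, pandas 2.3.3, numpy 2.4.6, scipy 1.17.1 and matplotlib 3.10.9 were used.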

Additional observations from a re-analysis of the deposited data

Results flagged for a closer look

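The 76 checks covered 36 named genes, read depth and detected genes in each late group. In 10 of them, all for genes, 1 library stood apart from the other 5 of its group by Dixon's criterion. Chance meets it in about 1 in 20 groups of normally spread values. FPKM values stop at 0 and all 10 flags were at the high end, so that rate need not hold here. In embryos labelled MZ-KO the highest library reached 19.9 FPKM for Chrna10, 1.96 for Arl4d, 80.6 for Tdpoz5, 1.19 for Tdpoz3, 2.00 for Duoxa2 and 9.33 for Zscan4d. In WT embryos the highest library reached 7.41 FPKM for Ier3, 5.15 for Dmac1, 0.23 for Dnajb3 and 19.15 for Plk2.

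Of the 36 named genes, 24 had a late genotype difference that departed from the early one in an interaction fit (limma, adjusted p below 0.05). Over all 11558 genes 20.4% did. The 2 shares cannot be compared, because the largest rises and falls were picked by the late difference, which is part of the departure. Calhm3, Dnajb3, Fkbp11 and Tex19.2 could also enter the late comparison only by differing. The late difference minus the early one, on the log2 scale, was positive for 16 of the 24 genes. It was 1.88 for Trp53, 4.06 for Ier3, 3.11 for Phlda2, 3.33 for Nt5c, 3.11 for Ndufb10, 2.93 for Dmac1, 2.82 for Dnajb3 and 3.18 for Psmb10. It was 2.92 for Fkbp11, 3.02 for Tex19.2, 3.03 for Chrna10, 2.77 for Mrpl36, 2.74 for Tex101, 3.02 for Cdkn1a, 1.44 for Ccng1 and 0.694 for Mdm2. It was negative for 8 genes, at -3.58 for Calhm3, -2.36 for Arl4d, -2.70 for Defb25, -1.93 for Tdpoz3, -1.89 for Klhl11, -2.16 for Pramel7, -2.55 for Zswim3 and -1.75 for Pim1.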

How the results depend on the processing

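No paired analysis was possible because the columns carry no replicate numbers. The 2802 calls became 1502 (752 higher, 750 lower) at FPKM 5 or more, 1340 (792 and 548) without overlapping genes and 1647 (1006 and 641) without the 3 libraries with Eif2s3y above 0, a setting chosen after seeing the data; fewer genes or samples enter each. With protein-coding genes only 756 were lower. Leaving out 1 library gave 2337 to 2832 calls. The late-minus-early calls became 1194 at FPKM 5 or more. The difference in detected genes was -40.8 above FPKM 0 and 158 at FPKM 5 or more, and 501 to 787 with 1 library left out. For Trp53 the difference turned to 0.041 with a pseudocount of 0.1, 0.0089 with read depth as covariate and 0.16 without the Eif2s3y libraries, and ran from -0.28 to 0.19 with 1 library left out. Bax turned to -0.050 after median-ratio scaling and -0.17 with the length and GC trend taken out, and ran from -0.016 to 0.21 with 1 library left out; Pou5f1 ran from -0.24 to 0.048. The cause was not tested. Of 144 called named genes 97 stayed called in every setting that tested them and none reversed. Single-embryo depth limits low genes.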

Other observations

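Xist, which silences an X chromosome, was too low to test. It was at 1.38 to 2.22 FPKM in MZ-KO libraries 1, 2, 4 and 5 and at 0 in 3 and 6, and at most 0.361 in WT.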
